A study of Homo sapiens with 28 samples.

Results

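The effect of the CDK8/19 inhibitor (CDK8/19i) Senexin B was examined in LNCaP cells that were stimulated with androgen. LNCaP is an androgen-responsive line of human prostate cancer, and all libraries come from this single line. The cells were first deprived of androgen in charcoal-stripped serum and were then treated for 24 h with R1881, a synthetic androgen, at 0.1 nM. The treated group received R1881 with Senexin B at 1 µM, the dose in the labels (the text of the study gives another dose). The labels give R1881 alone for the control group and name a vehicle, DMSO at 0.1%, only for the cells given neither agent. Each group holds 3 libraries, so that the comparison uses 6 of the 28 libraries of the series, chosen by their column names. Set beside it were Senexin B against DMSO without R1881 in 6 libraries of the same experiment, and SNX631 at 500 nM with R1881 at 1 nM against that R1881 dose alone, for 72 h, in 8 libraries.

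Androgen activates and represses genes in prostate cells, largely from enhancers. Enhancers act on RNA polymerase II through Mediator, a large complex to which a kinase module of CDK8 or its paralog CDK19, cyclin C, MED12 and MED13 can bind. In prostate cells, KLK3 (prostate-specific antigen) and KLK2 are textbook androgen-induced genes. Some of the UGT2B enzymes, which inactivate androgens by glucuronidation, are known to be repressed by androgen.

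The total count per library was between 10908361 and 13270527 in the 2 groups compared. Replicates of a group differed by more than sampling noise, and replicate 2 of the R1881 control group stood furthest from its group (chi-square per degree of freedom of 2.35 and 2.31 against the other replicates, which had 1.21 between them). The labels do not say whether replicates are separate cultures, so that the p-values measure only the spread between these libraries. Markers of LNCaP (8 genes such as FOXA1, HOXB13 and FOLH1) were all measured and summed to between 5103 and 5117 CPM (counts scaled to the size of the library) in control and between 4722 and 4912 CPM with Senexin B. Of 20 markers of stromal, endothelial, immune and basal cells, 10 were at 0 in every control library and 11 in every Senexin B library, among them COL1A2, DCN, CDH5, PTPRC, TP63 and KRT5 in both groups. Their sum was 21.2 to 23.7 CPM in control and 13.9 to 15.5 CPM with Senexin B, most of it COL1A1.

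Senexin B changed 497 of 15948 genes (3.12%) in the presence of R1881 when called by an edgeR FDR (false discovery rate) below 0.01 and by a change of more than 1.5-fold. Of these, 257 were higher (1.61%) and 240 were lower (1.5%). The groups did not overlap for 496 of the 497, as for 42.1% of all genes tested. The median absolute log2 fold change was 0.79 among the genes called, and 65 genes were more than 2-fold higher and 75 more than 2-fold lower. Protein-coding genes made up 83.9% of those called higher and 82.1% of those called lower, beside 82.4% of all tested. Without the fold limit, 3622 genes (22.7%) passed, of which 2029 rose (12.7%) and 1593 fell (9.99%). The median of all genes tested was 0.01 on the log2 scale. When replicate 2 of the R1881 control group was left out, 471 genes were called, 221 higher and 250 lower.

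**Figure D1:**
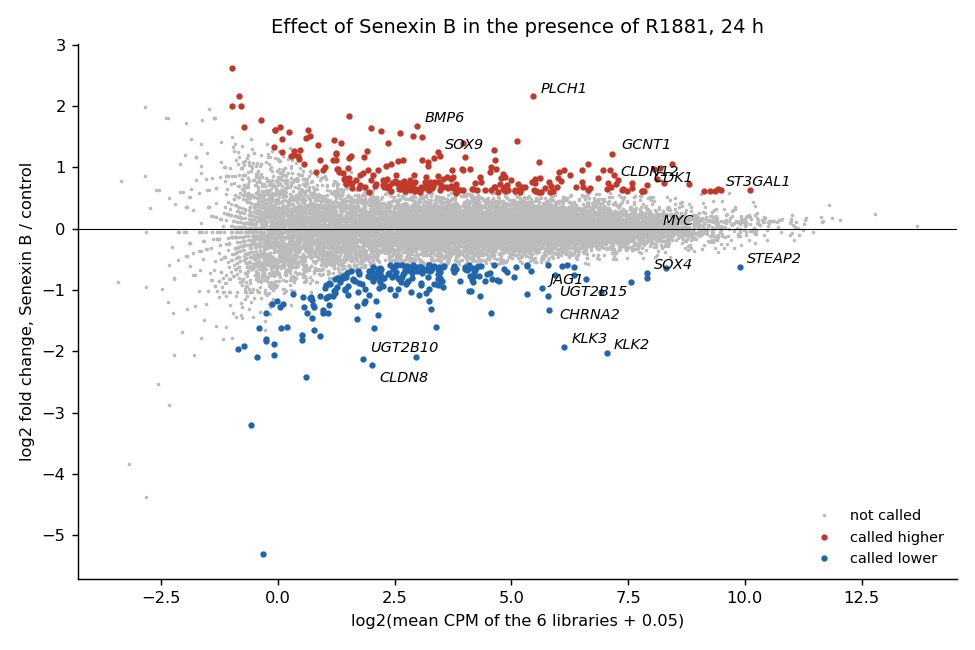
Log2 fold change of Senexin B against control in R1881-treated cells for each of the 15948 genes tested, against the log2 of the mean CPM of the 6 libraries plus 0.05. Red points are the 257 genes called higher, blue points the 240 called lower and grey points the rest. Named genes are those described in the text. KLK2 and KLK3 stand out among well expressed genes that fell, and PLCH1 among those that rose.

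KLK2 and KLK3, kallikreins that are secreted proteases of the prostate epithelium, were among the genes most reduced by Senexin B. KLK3 (ENSG00000142515.16, chromosome 19, 50854915 to 50860764, plus strand, GRCh38) was at 107, 115 and 109 CPM in the 3 libraries with R1881 alone and at 29.6, 29.2 and 28.4 CPM with R1881 and Senexin B. KLK2 (ENSG00000167751.13, chromosome 19, 50861568 to 50880567, plus strand) was at 221, 205 and 207 CPM in control and at 57.9, 49.1 and 48.4 CPM with Senexin B. The groups were far apart for both genes, and without androgen both were near the limit of detection (KLK3 at 1.13 to 1.71 CPM and KLK2 at 0.917 to 1.69 CPM with DMSO). KLK2 fell 4.08-fold (log2 fold change of -2.03 ± 0.05, SE, edgeR FDR 9.36e-24) and KLK3 fell 3.8-fold (-1.92 ± 0.05, edgeR FDR 4.02e-23). Since the sequences of KLK2 and KLK3 are much alike, reads of these paralogs may have been assigned to either gene.

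The start regions of these paralogs are shown because both genes fell together and are textbook targets of androgen. Each sequence holds the 250 bases before the transcription start given by RefSeq, which for KLK2 lies inside the GENCODE span of the gene, on GRCh38.p14 (KLK3 at chr19:50854665-50854914 and KLK2 at chr19:50873189-50873438, both on the plus strand), 5′ to 3′. Capitals mark a run of 14 bases that both share.
KLK3: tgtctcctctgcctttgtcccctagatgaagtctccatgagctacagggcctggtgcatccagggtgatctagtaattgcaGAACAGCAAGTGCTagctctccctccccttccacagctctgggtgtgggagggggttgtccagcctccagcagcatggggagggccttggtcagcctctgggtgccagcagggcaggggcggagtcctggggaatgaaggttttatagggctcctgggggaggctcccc
KLK2: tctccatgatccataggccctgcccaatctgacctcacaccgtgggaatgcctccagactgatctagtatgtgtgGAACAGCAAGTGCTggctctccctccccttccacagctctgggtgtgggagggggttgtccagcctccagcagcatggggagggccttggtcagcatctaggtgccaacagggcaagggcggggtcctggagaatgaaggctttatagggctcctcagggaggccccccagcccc
In KLK3 the run starts at the second base of the hexamer AGAACA, an arm of the consensus androgen response element, at position -170 from the start. KLK2 differs there by A1G, counted from the first base of the KLK3 hexamer, and holds no AGAACA on either strand. After the run and 1 differing base both promoters share a stretch of 80 identical bases. AGAACA on either strand was found in 12.4% of the 27305 promoters of that length in RefSeq, in 7.24% of the 10934 promoters of genes tested, in 15.1% of 166 promoters of genes called lower and in 8.05% of 174 promoters of genes called higher. The full palindromic androgen response element was in no promoter of a gene tested. On either strand, TGANTCA, the AP-1 motif, was in 3.42% of promoters of genes tested, 6.63% of those called lower and 3.45% of those called higher, and the E-box CACGTG in 8.99%, 5.42% and 10.3%. The interferon-stimulated response element was in 2.09%, 3.61% and 2.87%, the ATF4 element TGATGNAA in 1.31%, 2.41% and 1.72%, and the EGR motif GCGTGGGCG in 1.26%, 0% and 1.15%. Of all 27305 promoters, 6.6% held the AP-1 motif and 6.49% the E-box. The interferon, ATF4 and EGR motifs were in 3.07%, 3.19% and 0.71% of them. A match of letters is not a binding site, and a lack of exact letters, as in KLK2, does not show that a site is absent. These windows do not hold distant enhancers.

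The fall of KLK2 and KLK3 was not shared by all androgen-induced genes. Of 49 measured members of a list of 50 androgen-induced genes, 9 were called lower and 1 higher, against 1.5% and 1.61% of all genes. Without the fold limit 19 fell and 13 rose, against 9.99% and 12.7% of all genes. The median of the list was -0.08 on the log2 scale. The list was written with earlier results of these data known. From this series the study reports that both inhibitors lessened the androgen induction of CHRNA2, KLK2 and KLK3. Their place among the 9 is thus not independent of that report. The members called lower included CHRNA2, a nicotinic receptor subunit, which was at 80.2, 82.1 and 76.8 CPM in control and at 34.1, 32.4 and 29 CPM with Senexin B (log2 fold change of -1.33 ± 0.06, SE, edgeR FDR 2.02e-17). INPP4B, a phosphoinositide phosphatase, fell from 22.7 ± 1.58 to 11.2 ± 1.13 CPM (SD, n = 3). SLC38A4, an amino acid transporter, fell by 0.95 on the log2 scale, and SGK1, KRT19, MAF and STEAP2 by 0.73, 0.70, 0.64 and 0.63. The 9 members called lower are completed by KLK2 and KLK3. Of the other kallikreins on the list, KLK4 and KLK15 had values of -0.06 and -0.29 and did not pass. Other textbook androgen-induced genes moved in the opposite direction or little: FKBP5, a co-chaperone of steroid receptors, rose by 0.28 and TMPRSS2, a membrane protease, by 0.23 on the log2 scale, each at an FDR under 0.01. HERC3, a ubiquitin ligase, was the member called higher (0.62 on the log2 scale), and it is listed under 2 overlapping entries whose reads could not be told apart.

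**Figure D2:**
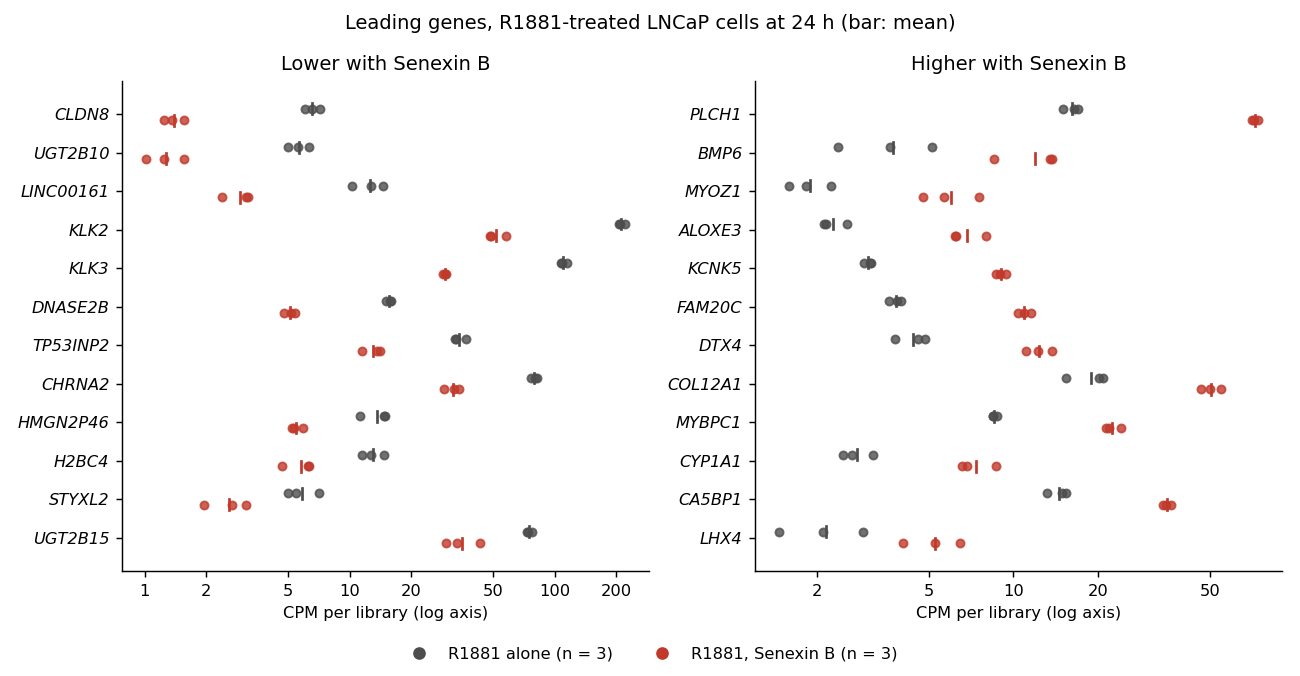
CPM per library on a log axis for the 12 genes with the lowest and the 12 with the highest log2 fold change among the genes called with a mean of at least 5 CPM. Grey points are the 3 libraries with R1881 alone, red points the 3 with R1881 and Senexin B, and bars are group means. Groups that do not overlap were a condition of the choice.

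Most of the other genes with the lowest log2 fold changes were of lower abundance than KLK2 and KLK3. CLDN8, a tight-junction claudin, was at 7.16, 6.53 and 6.05 CPM in control and at 1.36, 1.24 and 1.56 CPM with Senexin B, and the log2 fold change was -2.23 ± 0.19 (SE; edgeR FDR 6.21e-11). The long noncoding RNA LINC00161 went from 12.5 ± 2.11 to 2.91 ± 0.451 CPM (SD, n = 3). All 3 Senexin B libraries lay below all 3 control libraries for both genes. DNASE2B, a lysosomal endonuclease, fell 3.04-fold and TP53INP2, a regulator of autophagy, fell 2.61-fold. H2BC4, a histone H2B gene, fell 2.26-fold, as did STYXL2, a phosphatase-like protein of muscle, and the pseudogene HMGN2P46 fell 2.49-fold. Reads from LINC00161, TP53INP2, HMGN2P46 and STYXL2 could include those of genes annotated on the opposite strand, since the use of strand in counting is not given in the sources used here.

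UGT2B15 and UGT2B10 fell with Senexin B from levels that were already lower with R1881 alone than with DMSO alone. UGT2B15 was at 485 to 492 CPM with DMSO alone, at 73.8, 74.3 and 77.8 CPM with R1881, and at 29.5, 43.3 and 33.4 CPM with R1881 and Senexin B. UGT2B10 was at 36.8 to 40.2 CPM with DMSO alone, at 6.34, 5.03 and 5.62 CPM with R1881, and at 1.02, 1.24 and 1.56 CPM with both. Both were thus lowest where androgen and inhibitor were combined. With Senexin B but no R1881, UGT2B15 was at 150 to 155 CPM and UGT2B10 at 5.06 to 5.83 CPM. Their log2 fold changes without R1881 were -1.69 and -2.81, larger in size than with R1881. The interaction was 0.58 ± 0.09 for UGT2B15 (SE, edgeR FDR 2.78e-05), within the fold limit. For UGT2B10 it was 0.68 ± 0.26 and did not pass (edgeR FDR 0.144). With R1881, UGT2B10 fell by 2.13 ± 0.20 on the log2 scale (SE, edgeR FDR 6.52e-10). UGT2B28 fell by 1.47 ± 0.22, UGT2B15 by 1.10 ± 0.07 and UGT2B11 by 0.77 ± 0.09. UGT2B17 fell by 0.36, within the fold limit. In all, 4 of the 7 family members tested were called lower and 1 higher, against 1.5% and 1.61% of all genes, and 5 fell without the fold limit, against 9.99%. The member called higher was UGT2B7, which had at most 4 counts in any library with R1881 alone, and its call was lost when any of 4 libraries was left out (replicates 2 and 3 of both groups) and with DESeq2. The coding sequences of the family are alike, so that reads may be shared among members.

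The start regions of 3 UGT2B genes that fell together are shown as the last 150 bases before the start (RefSeq, GRCh38.p14; UGT2B10 at chr4:68815844-68815993 on the plus strand, UGT2B11 at chr4:69214749-69214898 and UGT2B15 at chr4:68670653-68670802 on the minus strand), written 5′ to 3′ in the direction of transcription. Capitals mark the longest run common to the 3, of 18 bases, which starts at position -55 in UGT2B10 and UGT2B11 and at -56 in UGT2B15.
UGT2B10: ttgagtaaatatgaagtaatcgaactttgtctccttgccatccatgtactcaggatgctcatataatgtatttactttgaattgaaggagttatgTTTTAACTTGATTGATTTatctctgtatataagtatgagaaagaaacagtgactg
UGT2B11: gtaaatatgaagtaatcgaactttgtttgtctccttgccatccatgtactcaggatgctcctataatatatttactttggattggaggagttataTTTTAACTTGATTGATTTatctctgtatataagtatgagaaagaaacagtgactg
UGT2B15: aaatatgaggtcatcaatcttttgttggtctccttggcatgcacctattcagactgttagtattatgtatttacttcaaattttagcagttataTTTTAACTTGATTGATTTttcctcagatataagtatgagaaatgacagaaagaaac
UGT2B10 and UGT2B11 were identical at 129 of these 150 bases without gaps. CLDN8, UGT2B17 and UGT2B28 had no entry in the table of promoters, which held 61 of the 77 genes named by the rule used here.

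Among the genes that rose, PLCH1, a phospholipase C, changed most of those above 5 CPM. It was at 17, 15 and 16.4 CPM with R1881 alone and at 70.5, 71.4 and 74.3 CPM with R1881 and Senexin B, which is 4.47-fold higher (log2 fold change of 2.16 ± 0.07, SE, edgeR FDR 2.16e-21). BMP6, a bone morphogenetic protein, was at 5.14, 2.38 and 3.63 CPM in control and at 8.55, 13.5 and 13.7 CPM with Senexin B. Its replicates were more spread than those of PLCH1, but the groups did not overlap. COL12A1, a fibril-associated collagen, rose 2.68-fold, MYBPC1, a myosin-binding protein, 2.63-fold and KCNK5, a potassium channel, 2.95-fold. CYP1A1, a monooxygenase known as a target of the aryl hydrocarbon receptor, rose from 2.78 ± 0.359 to 7.37 ± 1.16 CPM (SD, n = 3). MYOZ1, a muscle protein, rose 3.11-fold to 5.99 ± 1.42 CPM, still below its level without androgen (14.4 to 16.4 CPM). FAM20C, a kinase of secreted proteins, rose 2.86-fold, ALOXE3, a lipoxygenase of skin, 3.00-fold, the pseudogene CA5BP1 2.42-fold and LHX4, a homeobox factor, 2.41-fold. Reads from PLCH1, MYBPC1, FAM20C, CA5BP1 and LHX4 could likewise include those of genes annotated on the opposite strand.

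Abundant genes changed by less. STEAP2, a metalloreductase, was the most abundant gene called lower and went from 1153 ± 46.1 to 746 ± 25.7 CPM (SD, n = 3). MAF, a leucine zipper factor, went from 385 ± 19.7 to 246 ± 16.2 CPM, TUBA1A, an alpha-tubulin, from 303 ± 14.2 to 174 ± 5.59 CPM, SOX4, an HMG-box factor, from 296 ± 11.6 to 179.7 ± 4.78 CPM, and GULP1, an engulfment adaptor, from 243 ± 7.53 to 133 ± 10.4 CPM. In the other direction stood ST3GAL1, a sialyltransferase (540.0 ± 18 to 841 ± 15.5 CPM), BDP1, a factor of RNA polymerase III (566 ± 42.2 to 876 ± 16.3 CPM), H2AZ1, a histone variant (519 ± 24.8 to 791 ± 26.7 CPM), FGFRL1, an FGF receptor-like protein (481 ± 12 to 737 ± 17.3 CPM), and PRUNE2 (868 ± 131 to 1337 ± 68 CPM). The log2 fold changes of these 5 genes were between 0.61 and 0.64, and H2AZ1 and FGFRL1 were no longer called with scaling by library totals, H2AZ1 without control replicate 3 and BDP1 without control replicate 2. PRUNE2 and GCNT1 overlap on opposite strands, and replicate 2 of the R1881 control group was the lowest library for PRUNE2, at 718 CPM against 934 and 954, whose call was lost without that replicate or without Senexin B replicate 3.

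Transcripts of the inhibitor's targets changed little. CDK8 (ENSG00000132964.13) was at 22.9, 22.7 and 25.4 CPM in control and at 21.3, 26.8 and 23.9 CPM with Senexin B, and the groups overlapped (log2 fold change of 0.02 ± 0.08, SE, edgeR FDR 0.908, with the sign turned by scaling to library totals). CDK19 (ENSG00000155111.15) was at 418, 403 and 422 CPM in control and at 432, 459.7 and 451 CPM with Senexin B. The groups did not overlap for CDK19, but the difference was 1.08-fold (edgeR FDR 0.0066). CCNC, which encodes cyclin C, fell by 0.21 ± 0.05 on the log2 scale (edgeR FDR 0.00191). MED12, MED13 and MED13L had values of -0.13, -0.07 and -0.17 and did not pass. MED12L, a paralog of MED12, was called higher (11.7 ± 2.08 to 17.9 ± 2.09 CPM, SD, n = 3), although it overlaps several genes on the opposite strand and its call was lost without replicate 2 of the control group or replicate 1 of the Senexin B group. Of 26 core Mediator subunits none was called. Without the fold limit 1 rose (MED17) and 2 fell (MED11 and MED21), against 12.7% and 9.99% of all genes. The rise of MED17 was lost with DESeq2, with scaling by library totals, with the 2 groups alone and without any of 4 libraries, and 1 fell without Senexin B replicate 2.

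None of 27 genes on a list of coregulators, of which 1 member is not reported here, was called, but without the fold limit 13 fell and none rose, against 9.99% and 12.7% of all genes. TLE1, a Groucho corepressor, fell by 0.50, the acetyltransferase KAT5 by 0.41 and the coactivators NCOA3 and NCOA1 by 0.34 and 0.30. The median of the list was -0.14. Among 13 prostate lineage factors measured, SOX9, an HMG-box factor of prostate progenitors, was called higher, and it was at 7.35, 6.62 and 5.01 CPM in control and at 17.8, 12.8 and 14.2 CPM with Senexin B. Without the fold limit 4 of the 13 rose and 2 fell, against 12.7% and 9.99% of all genes. Among them FOXA1, a pioneer factor, fell by 0.20, the repressor TRPS1 fell by 0.51 and GATA2 rose by 0.24.

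Genes of the G1/S transition and of DNA replication rose together by small amounts. Of 47 members tested none was called with the fold limit. At an FDR under 0.01, 22 rose and none fell, against 12.7% and 9.99% of all genes. The median was 0.21 on the log2 scale, and 46 of 47 members were above 0. E2F1, a transcription factor of S-phase entry, rose by 0.48, the helicase factors CDC45 and MCM10 by 0.40 and 0.42 and the helicase subunit MCM2 by 0.39. The count was 14 without control replicate 1 or 3. Genes of G2/M and mitosis followed less: 6 of 50 rose, near the share among all genes, with a median of 0.13, and 3 did so with DESeq2, with scaling by library totals or without control replicate 1 or 3 or Senexin B replicate 2 (10 without Senexin B replicate 1). Of these, CDK1, the kinase of mitotic entry, was called higher and went from 179, 189 and 173 CPM to 279, 308 and 299 CPM (log2 fold change of 0.71 ± 0.04, SE, edgeR FDR 2.81e-15). MKI67 and CCNB1 had values of 0.03 and 0.02 and did not pass. Without R1881, 28 of 47 G1/S genes and 18 of 50 G2/M genes rose with Senexin B and none fell. The medians there were 0.38 and 0.40, and 10 and 6 members were called higher, against 2.02% of all genes. Of all 15948 genes, 2147 rose and 1862 fell without R1881. With SNX631 and R1881 at 72 h, 45 of 47 and 49 of 50 members rose, beside 2855 of 16074 genes. For the lists, no difference between these comparisons was tested.

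MYC, a driver of growth genes, was at 275, 291 and 280.4 CPM in control and at 391, 391 and 390.4 CPM with Senexin B. It was higher in all 3 treated libraries (log2 fold change of 0.47 ± 0.03, SE, edgeR FDR 1.15e-12), a change within the fold limit. On a list of MYC targets and ribosome biogenesis genes, 29 of 45 rose and 1 fell without the fold limit. The shares of all genes were 12.7% and 9.99%, and the median of the list was 0.20. CAD, which starts pyrimidine synthesis, rose by 0.53, POLR1B, a subunit of RNA polymerase I, by 0.32, ODC1, of polyamine synthesis, by 0.30 and the nucleolar methyltransferase FBL by 0.29. EIF4A1, a translation factor, was the member that fell, by 0.11. Without R1881, 39 of the 45 members rose with Senexin B and none fell, against 2147 and 1862 of all 15948 genes. MYC itself was called higher there (0.60).

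Genes of amino acid supply that respond to the factor ATF4 also rose: 20 of 35 passed upwards and none downwards. The shares of all genes were 12.7% and 9.99%, and the median of the list was 0.21. STC2, a secreted stanniocalcin, went from 41.2 ± 1.87 to 69.7 ± 0.359 CPM (SD, n = 3) and was called, as was the glutamine transporter SLC1A5 (36.5 ± 2.65 to 55.9 ± 2.11 CPM), whose call was lost with scaling by library totals and without control replicate 1 or Senexin B replicate 1. SLC1A4 rose by 0.57, the mitochondrial folate enzyme MTHFD2 by 0.43 and ATF4 by 0.33, whereas DDIT3 (CHOP), at 0.41, did not pass. Chaperones of the endoplasmic reticulum did not follow, since 10 of 28 fell and 3 rose, against 9.99% and 12.7% of all genes. HSPA5 (BiP) fell by 0.34, HSP90B1 by 0.31 and calreticulin (CALR) by 0.26, while XBP1 rose by 0.49. Without R1881, 26 of the 35 ATF4 genes rose with Senexin B and none fell, against 2147 and 1862 of all 15948 genes. Of the 35, 8 were called higher, against 2.02% of all genes.

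**Figure D3:**
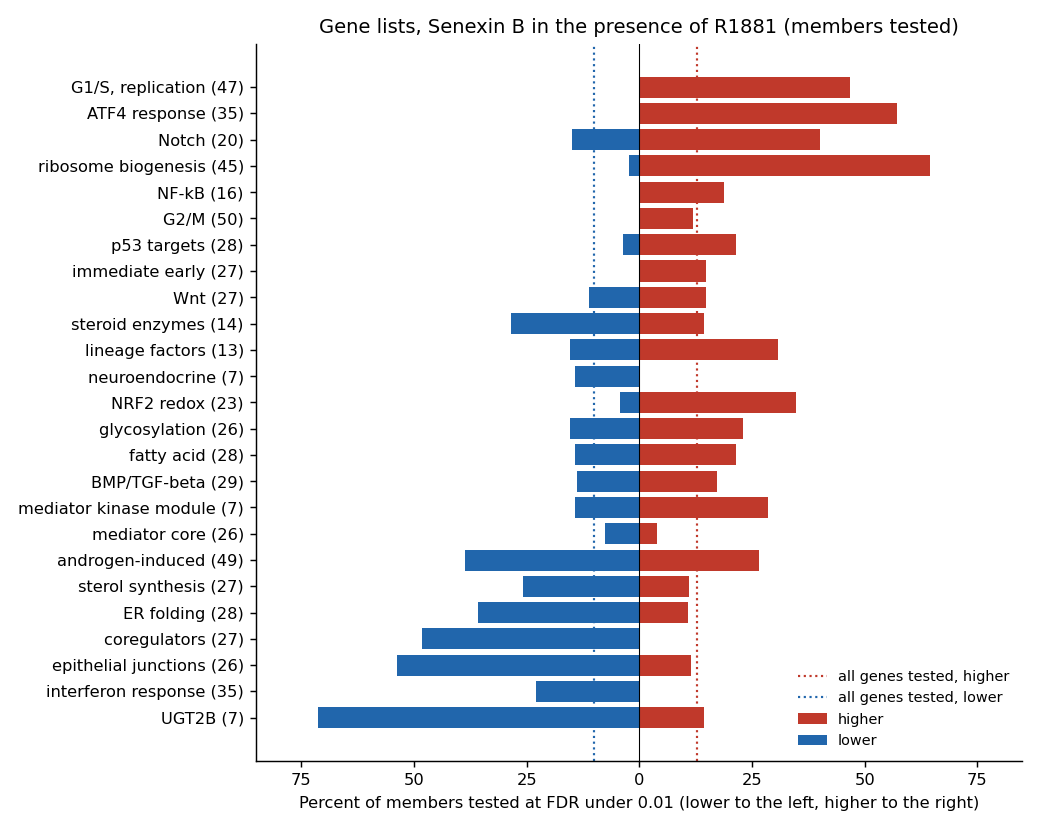
Percent of the measured members of each gene list that rose (red, to the right) or fell (blue, to the left) with Senexin B in R1881-treated cells at an FDR below 0.01 whatever the fold, ordered by the list's median log2 fold change. Numbers in brackets are members tested, and dotted lines are the shares among all genes tested (12.7% higher and 9.99% lower). Replication, ATF4 and ribosome biogenesis lists lie on the side of higher genes, and UGT2B, junction and coregulator lists on the side of lower genes.

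Interferon-response genes and genes of epithelial junctions fell more often than they rose. Of 35 interferon-response genes tested (of 50 on the list), 8 fell and none rose, against 9.99% and 12.7% of all genes. The median was -0.27, and 4 were called lower, against 1.5% of all genes. HERC6, a ubiquitin ligase, was at 13.8, 13.9 and 14.3 CPM in control and at 8.13, 5.73 and 8.04 CPM with Senexin B. IFIT2, HERC5 and IFI44 fell by 1.32, 0.87 and 0.92 from levels under 11 CPM, and the call of IFI44 was lost with DESeq2 and without any of 4 libraries. IFI6 and ISG15 had values of -0.46 and 0.06 and did not pass. Of 26 junction genes and keratins, 14 fell and 3 rose, against 9.99% and 12.7% of all genes, with a median of -0.23. Besides CLDN8, the scaffold TJP3 and KRT19 were called lower, and KRT8 and KRT18, the keratins of luminal cells, fell by 0.31 and 0.29. CLDN12, another claudin, went the other way, from 95.1, 94.9 and 92 CPM to 181, 182 and 183 CPM (log2 fold change of 0.95 ± 0.04, SE, edgeR FDR 1.03e-18).

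Glycosylation enzymes moved in both directions. GCNT1, which branches core-type O-glycans, was at 86.5, 83.2 and 87.9 CPM in control and at 197, 199 and 201 CPM with Senexin B. ST3GAL1 (above), GALNT3 (40.5 ± 1.81 to 64.2 ± 8.97 CPM, SD, n = 3), GALNT10 and ST6GALNAC4 were also called higher. ST6GALNAC1, which makes the sialyl-Tn antigen, lay between its levels without androgen and with R1881 alone. It was at 0 to 0.341 CPM without androgen, at 26.3, 23 and 21.4 CPM with R1881 and at 11.3, 12 and 11.7 CPM with both. GCNT2 was the other member called lower, by 0.61. In all, 5 of 26 members were called higher and 2 lower, against 1.61% and 1.5% of all genes.

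JAG1, a Notch ligand, went from 69.4, 65.6 and 66.3 CPM to 33.5, 33.2 and 35.8 CPM (log2 fold change of -0.97 ± 0.05, SE, edgeR FDR 2.63e-15). DTX4, a ubiquitin ligase of the Notch pathway, rose from 4.41 ± 0.556 to 12.4 ± 1.33 CPM (SD, n = 3). Of 20 Notch genes tested 8 rose and 3 fell without the fold limit, against 12.7% and 9.99% of all genes. The number that rose was 5 without control replicate 1 or 3 or Senexin B replicate 1. HES1, a target of Notch, and HES2 were called in opposite directions (0.83 and -0.97) at levels under 7 CPM. The call of HES1 was lost with DESeq2 and without any of 3 libraries. GDF15, a stress-induced cytokine, rose from 6.31 ± 0.763 to 14 ± 1.92 CPM. With BMP6 it was called higher among 29 BMP and TGF-beta genes, against 1.61% of all genes. Of the 29, 5 rose and 4 fell without the fold limit, against 12.7% and 9.99% of all genes. CDKN1A (p21), a p53 target like GDF15, fell by 0.24. Of 28 p53 targets 6 rose and 1 fell, against 12.7% and 9.99% of all genes. WNT10B rose from 6.6 ± 0.18 to 11.1 ± 1.1 CPM, and AXIN2, a feedback target of Wnt signaling, fell by 0.57, within the fold limit, among 27 Wnt genes of which 4 rose and 3 fell, near the shares of all genes.

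In the remaining lists few members were called. NR4A1, an immediate-early nuclear receptor, rose from 19.8 ± 1.49 to 35 ± 3.91 CPM (SD, n = 3), while EGR1 and JUN had values of -0.15 and 0.01 and did not pass, and 4 of 27 immediate-early genes rose and none fell, against 12.7% and 9.99% of all genes. TXNIP, an inhibitor of thioredoxin, fell from 123 ± 1.86 to 70.0 ± 6.84 CPM. Of 23 redox genes 8 rose, by up to 0.25, and 1 fell, against 12.7% and 9.99% of all genes. The number that rose was 4 with scaling by library totals or without control replicate 1. It was 5 without control replicate 3 or Senexin B replicate 2 or 3. ABCA1, a cholesterol exporter, was called higher at a mean of 1.91 CPM (1.05 ± 0.27, SE, edgeR FDR 0.00273). Its call was lost without any of 4 libraries. Of 27 sterol genes 7 fell, among them HMGCS1 by 0.31, and 3 rose, against 9.99% and 12.7% of all genes. The number that rose was 2 or fewer when any of the 6 libraries compared was left out. It was 0 without control replicate 2 or 3. SULT2B1, a steroid sulfotransferase, fell by 0.83, and its call was lost without control replicate 3. Of 14 steroid enzymes 4 fell and 2 rose, against 9.99% and 12.7% of all genes. None of 16 NF-kB genes, 28 fatty acid genes or 7 neuroendocrine genes tested was called. Without the fold limit 3 NF-kB genes rose, 6 fatty acid genes rose (3 with scaling by library totals) and 4 fell, and 1 neuroendocrine gene, TUBB3, fell. The shares of all genes were 12.7% higher and 9.99% lower. COL1A1, a collagen on the list of markers of other cells, fell from 14.7 ± 0.534 to 8.12 ± 0.697 CPM; the part of other cells in this was not tested, and COL1A2 and DCN were at 0 in all 6 libraries.

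Genes were next sorted by their response to R1881 in the libraries of the 72 h experiment without inhibitor, which share no library with the comparison described here. In that experiment R1881 raised 1559 of 16074 genes (9.7%) and lowered 1626 (10.1%), a split of 1299 to 2121 with scaling by library totals. Genes on which androgen acted were called more often than the rest, in both directions. Of 230 genes raised over 4-fold, 29 were called lower with Senexin B (12.6%) and 10 higher (4.35%), against 1.52% and 1.61% of all 15681 genes tested in both experiments. Of 1294 genes raised by 1.5-fold to 4-fold, 54 were called higher (4.17%) and 32 lower (2.47%), so that the direction of the majority differed between the classes. Of 168 genes lowered over 4-fold, 13 were called higher (7.74%) and 5 lower (2.98%). Of 1387 genes lowered by 1.5-fold to 4-fold, 42 were called higher (3.03%) and 46 lower (3.32%). Of 12602 genes not called for R1881, 134 were called higher (1.06%) and 126 lower (1%). The medians of all 5 classes lay between -0.03 and 0.08 on the log2 scale.

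**Figure D4:**
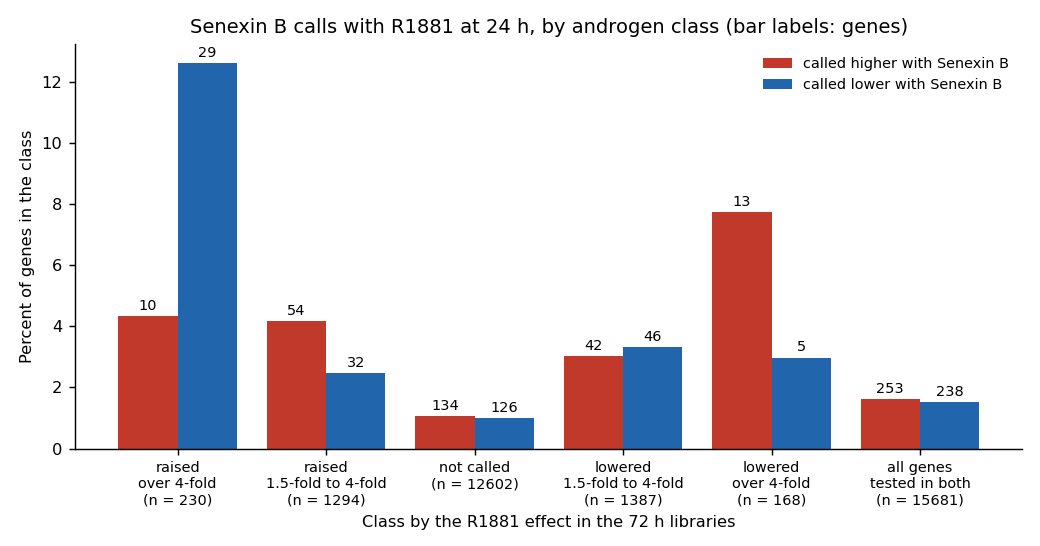
Percent of genes called higher (red) or lower (blue) with Senexin B in R1881-treated cells at 24 h, by the class of the R1881 effect in the separate 72 h libraries without inhibitor; bar labels give the number of genes. The class raised over 4-fold holds the highest share of genes called lower (12.6%), and the class lowered over 4-fold the highest share called higher (7.74%).

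Senexin B was also compared with DMSO in the absence of R1881. Without R1881, Senexin B changed 604 of 15948 genes (3.79%), 322 higher (2.02%) and 282 lower (1.77%), in libraries that the first comparison does not use. Of the 257 genes called higher with R1881, 96 were called higher without it, which is 37.4% of the first list and 29.8% of the second. Of the 240 called lower, 102 were called lower without it (42.5% and 36.2%). In the direction of their call with R1881 stood 91.4% of the higher and 92.5% of the lower genes, against 50.1% and 49.9% of all genes, and 3 genes (CNTNAP3, MED12L and a gene with no symbol) were called in opposite directions. TP53INP2, LINC00161, TXNIP and CYP1A1 are examples of genes that changed on both backgrounds (log2 fold changes of -1.22, -2.41, -0.81 and 1.04 without R1881).

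The difference between the effects was tested as an interaction, for which 92 genes were called (0.577%), 39 (0.245%) with a higher and 53 (0.332%) with a lower effect in the presence of R1881. Of these, 24 were called with R1881 but not without it, 39 without it but not with it, 5 in both in the same direction, 3 in both in opposite directions and 21 in neither. SOX9 was among the highest (1.53 ± 0.25, SE, edgeR FDR 9.34e-05). It was at 2.61 to 3.47 CPM with DMSO and 2.13 to 2.73 CPM with Senexin B in the absence of R1881, where the groups overlapped. CNTNAP3, a contactin-associated protein, rose with R1881 (10.3 ± 0.741 to 20.4 ± 0.567 CPM, SD, n = 3) and fell without it (4.69, 4.3 and 4.07 to 2.58, 2.07 and 3.58 CPM). PRRT2, a synaptic protein, and TENM1, a teneurin, had interactions of 1.62 ± 0.27 and 1.42 ± 0.20, and ALOXE3 of 1.43 ± 0.26. CA5BP1 and NR4A1 rose with R1881 and had values of 0.02 and 0.03 without it, which did not pass.

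Among genes whose effect was lower with R1881, KLK3 had an interaction of -1.23 ± 0.28 (SE, edgeR FDR 0.00624), a call that was lost when any of 6 libraries was left out. It was at 0.912 to 1.71 CPM in the libraries without R1881. For KLK2 the interaction was -0.98 ± 0.42 and did not pass (edgeR FDR 0.214). JAG1 fell by 0.97 with R1881 and had a value of -0.21, within the fold limit, without it (interaction of -0.76 ± 0.07, edgeR FDR 9.25e-09). SOX4 fell by 0.72 with R1881 and had a value of -0.08 without it that did not pass (interaction of -0.64 ± 0.05, edgeR FDR 4.39e-11). TMEFF2, a membrane protein of prostate and brain, rose without R1881 from 22.3, 23.2 and 25.4 to 53.1, 58.3 and 57.3 CPM. With R1881 it was at 94, 105 and 99 CPM in control and at 101, 101 and 112 CPM with Senexin B, where the groups overlapped (interaction of -1.13 ± 0.08, edgeR FDR 2.05e-11). CCDC141, DLG2 and LINC00638 had interactions of -1.51, -0.98 and -1.12, whose calls were lost without any of 3, 2 and 5 libraries. GCNT1 rose on both backgrounds, but less with R1881 (1.21 against 1.86).

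**Figure D5:**
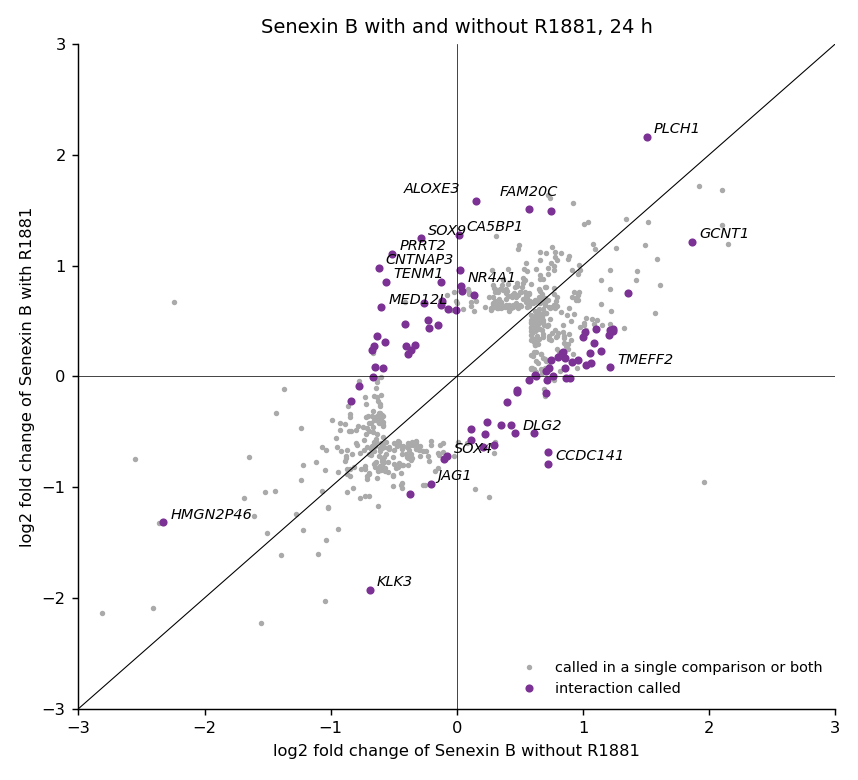
Log2 fold change of Senexin B with R1881 (vertical) against that without R1881 (horizontal) for the 648 genes called in either comparison or for the interaction and with a mean of at least 5 CPM in a group. Purple points are the 91 of them called for the interaction, and the diagonal marks equal effects. SOX9, CA5BP1 and ALOXE3 lie far above the diagonal near 0 on the horizontal axis, and KLK3, CCDC141 and TMEFF2 lie below it.

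SNX631, a CDK8/19i described in the study as chemically unrelated to Senexin B, was given with R1881 for 72 h, so that compound, androgen dose and time cannot be told apart and no difference between the compounds was tested. With SNX631, 663 of 16074 genes (4.12%) were called, 303 higher (1.89%) and 360 lower (2.24%). With scaling by library totals the split was 247 to 431. Of the genes tested in both experiments, 116 of 253 called higher with Senexin B were also called higher with SNX631 (45.8% of the first list and 39.6% of the second), and 128 of 238 called lower were also called lower (53.8% and 36.7%). None was called in the opposite direction, and 97.6% and 98.7% stood on the same side of 0, against 49.3% and 50.7% of all genes. PLCH1 had a log2 fold change of 2.16 with Senexin B and 2.20 with SNX631, CA5BP1 1.28 and 1.31, COL12A1 1.42 and 1.37, KLK2 -2.03 and -1.91, UGT2B15 -1.10 and -1.11, and CHRNA2 -1.33 and -1.24. Values of SNX631 stood closer to 0 for BMP6 (1.68 and 0.95), GDF15 (1.15 and 0.22, which did not pass), FAM20C (1.51 and 0.51, which did not pass) and ST6GALNAC4 (0.88 and 0.27, which did not pass). CDK1, CDK19 and MYC had higher values with SNX631 (0.71 and 1.02, 0.11 and 0.33, 0.47 and 0.63).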

How the data were processed

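RNA was sequenced from 28 LNCaP libraries made with a directional kit. The authors deposited expected counts per gene, not scaled to depth, of which 16.9% of the values above 0 were fractional; the submitters' processing notes name FastQC, cutadapt 2.8, STAR 2.7.2b, featureCounts and Subread 2.0.3, with GRCh38.p13 and GRCm39, and the use of strand is not given in the sources used here. The 2 entries that are not human genes held 0 counts and were left out. Values were rounded. The 12 libraries at 24 h and the 16 at 72 h were fitted separately in R 4.3.3 with edgeR 4.0.16 (TMM, filterByExpr with a minimum count of 10 and total of 15, quasi-likelihood test, Benjamini-Hochberg FDR over all genes tested), and calls needed an FDR below 0.01 and a change of more than 1.5-fold. CPM are counts relative to the TMM-scaled library size, and levels are compared within a gene. The SE is the log2 fold change divided by the root of the F statistic. Totals of the series ranged from 9846595 to 33809419, and the common biological coefficient of variation at 24 h was 2.72%. Libraries with the same replicate number in different groups were not treated as pairs, and the labels do not say whether they are.

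The members and the 27 gene lists, written from general knowledge, were chosen with earlier results of these data known. Named genes are KLK3, KLK2, MYC and the kinase module; the 12 highest and 12 lowest log2 fold changes among called genes with a gene symbol, at least 5 CPM in the higher group and groups that do not overlap; up to 4 called members per list with the largest change; the 5 most abundant called genes per direction; and the 5 highest and 5 lowest interactions. Other list members in the text were chosen after their values were seen. Gene positions come from GENCODE 29 (GRCh38), joined on the identifier without version, and promoters from RefSeq on GRCh38.p14. Alternatives were other scalings, filters, limits and rounding, DESeq2 1.42.0, a replicate block, 2 groups only and leaving out each library; the FDR under 0.01 with no fold limit was chosen after seeing the data. The scripts were first tested on simulated counts. Figures were drawn with matplotlib 3.10.9.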

Additional observations from a re-analysis of the deposited data

Results flagged for a closer look

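For the 20 named genes below, the effect of Senexin B differed between cells with and without R1881 by the interaction test of edgeR (FDR under 0.01 and a difference over 1.5-fold). The log2 difference, with R1881 minus without it, was 1.62 for PRRT2, 1.60 for CNTNAP3, 1.53 for SOX9, 1.43 for ALOXE3, 1.42 for TENM1, 1.26 for CA5BP1 and 1.23 for MED12L. HMGN2P46, FAM20C, NR4A1, DTX4 and PLCH1 had differences of 1.01, 0.94, 0.79, 0.75 and 0.66. The difference was -1.51 for CCDC141, -1.23 for KLK3, -1.13 for TMEFF2, -1.12 for LINC00638, -0.98 for DLG2, -0.76 for JAG1, -0.65 for GCNT1 and -0.64 for SOX4. HMGN2P46 fell on both backgrounds, by 1.32 with R1881 and by 2.33 without it on the log2 scale.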

How the results depend on the processing

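The 497 genes of the main comparison were 414 with DESeq2, 400 with a minimum count of 50, 526 with every gene above 0, 478 from the 2 groups alone, 497 with DESeq2 size factors, 498 unrounded and 507 with scaling by library totals (228 higher, 279 lower). With no fold limit the counts were 5257 at an FDR under 0.05 and 3622 at 0.01, and 94 in a test against a 1.5-fold change. The same 3 limits gave 5717, 4009 and 134 genes without R1881, 719, 334 and 7 for the interaction and 6873, 5326 and 140 for SNX631, and the first 2 gave 9984 and 8397 for R1881 at 72 h. Leaving out 1 library gave 454 to 500 genes with R1881, 507 to 607 without it, 74 to 103 for the interaction, 624 to 675 for SNX631 and 3135 to 3235 for R1881. The value of CDK8 turned to -0.020 with scaling by library totals and ranged from -0.062 to 0.085 when 1 library was left out, below 0 in 3 cases. The labels do not say whether libraries of the same replicate number belong together, and the main fit did not pair them. Their deviations from the group means had r of -0.0006, 0.04 and 0.02 between the groups compared. With 3 libraries per group, such values cannot exclude a pairing. With the replicate block 502 genes were called with R1881, 612 without it, 101 for the interaction, 660 for SNX631 and 3173 for R1881, and no call of a named gene changed. Of the 87 named-gene values, 38 lost their call in the test against a 1.5-fold change. Some of the 87, such as those of MYC, CDK8 and CDK19, had no call to lose. The calls of UGT2B7, HES1 and IFI44 were lost with DESeq2. Theirs and those of ABCA1, MED12L, SLC1A5, SULT2B1, PRUNE2, BDP1 and H2AZ1 were lost when single libraries were left out. So were the interaction calls of KLK3, CCDC141, DLG2 and LINC00638. The cause was not tested.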
